A study of Mus musculus with 2 samples.

Results

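Lep, Cfd, Nnat, Mest, Sncg and Hoxc8 were examined as genes of white adipocytes and of growing fat in brown adipose tissue. They were chosen by their FPKM values in these same libraries, together with what is known of them, so their ratios are given as a description. All 6 had a value among the 628 genes of the deposited table. FPKM counts the sequenced fragments of a gene relative to its transcript length and to the size of the library. The tissue came from C57BL/6 mice labelled 3bKO or fl/fl, given a diet with 60% fat for 20 weeks, with 1 library of each genotype. The labels name no Cre driver, sex, age or number of animals per library. The table's own name opposes Myf5 to D3b without tying either to a column, so the genotypes rest on the column headings. The labels do not spell out 3bKO. If it stands for loss of Dnmt3b, a DNA methyltransferase, the deletion could not be checked, since Dnmt3b had no value in the table. Ucp1, the defining gene of brown adipocytes, had none either.

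White adipocytes store triglyceride in a single large droplet and report the size of that store to the brain through leptin, whereas brown adipocytes burn lipid for heat. Both secrete proteins, and some genes, among them those of leptin and of the homeobox factor HOXC8, are typically more abundant in white than in brown fat. When brown fat takes up lipid under a rich diet it can come to resemble white fat in structure, a process called whitening. Some genes of adipocytes that are enlarging, such as Mest, are imprinted, meaning that only the copy inherited from 1 parent is transcribed.

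In the 3bKO library 5 of the 6 genes stood above their fl/fl level, by 1.91-fold to 2.72-fold, and Cfd stood below it, at 27.8% of its fl/fl level. The 4 genes higher by more than 2-fold were Lep, Nnat, Mest and Hoxc8. Beside this count, 47.1% of all 628 listed genes exceeded 2-fold upward in 3bKO and 4.46%, Cfd among them, exceeded 2-fold downward. The table lists selected genes, with no absolute log2 ratio under 0.50, and 512 of them (81.5%) were higher in 3bKO. The median log2 ratio was 1.18 over the 6 genes and 0.96 over all listed genes. With 1 library per genotype no test was possible, and a ratio compares these libraries and not the genotypes. Rounding of the deposited values to the second decimal shifts no log2 ratio of the 6 genes by more than 0.0045, but the variation between animals is unknown.

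The order of levels was Sncg, Lep, Nnat, Cfd, Mest and Hoxc8 in 3bKO. In fl/fl it was Cfd, Sncg, Lep, Nnat, Mest and Hoxc8. Leaving Cfd aside, the other 5 genes thus kept one order in both libraries, over a 56.8-fold range in 3bKO and an 80.9-fold range in fl/fl. Cfd ranked 4 of 6 in 3bKO and 1 of 6 in fl/fl. Without replicates it cannot be said which neighbours in these orders differ beyond their spread.

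**Figure D1:**
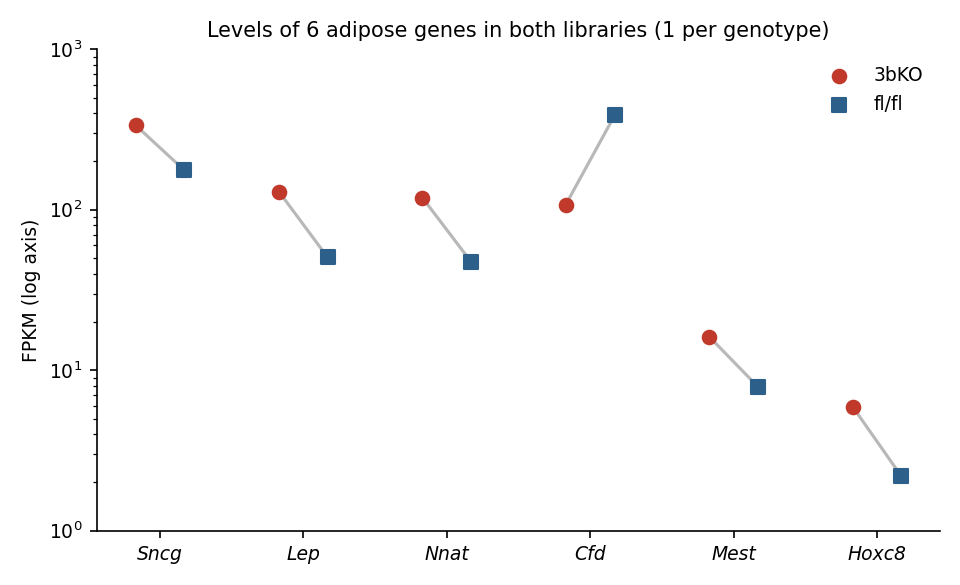
FPKM on a log axis of 6 adipose genes in the 3bKO library (red circles) and the fl/fl library (blue squares), 1 library each, ordered by level in 3bKO. Sncg, Lep, Nnat, Mest and Hoxc8 lie higher in 3bKO, and Cfd lies at 108 FPKM in 3bKO against 387 FPKM in fl/fl.

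Among the secreted factors, Lep encodes leptin, the hormone by which fat restrains food intake, and Cfd encodes adipsin, also called complement factor D. Adipsin is a serine protease that cleaves factor B in the alternative pathway of complement, and it is among the most abundant transcripts of mouse fat. Lep was 130 FPKM in 3bKO and 50.4 FPKM in fl/fl, a log2 ratio of 1.36. It ranked 200 of the 512 higher genes by ratio, so many listed genes exceeded its ratio. Cfd was 108 FPKM in 3bKO and 387 FPKM in fl/fl, a log2 ratio of -1.85. It ranked 11 of the 116 lower genes. It ranked 4 of the 109 lower genes that reached 1 FPKM in each library. A further comparison was chosen after the values were seen. Among the 29 genes with at least 100 FPKM in fl/fl, Cfd had the lowest ratio, the next being at -1.10. That cut-off used only the fl/fl library, where Cfd was high, so it favours lower genes, and 17 of the 29 were lower. This rank is therefore a description only. The ratio of Lep to Cfd within a library was 1.20 in 3bKO and 0.130 in fl/fl. Lep mRNA thus stood slightly above Cfd mRNA in the 3bKO library, while in the fl/fl library it stood well below it.

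The gene most like Lep in its pair of log2 FPKM values was Bgn, which encodes the matrix proteoglycan biglycan, at 115 FPKM in 3bKO and 57.0 FPKM in fl/fl (distance 0.24 in log2 units). The next was H2-Aa, an MHC class II chain, at 120 FPKM in 3bKO and 60.4 FPKM in fl/fl (distance 0.28). Cfd had no close neighbour. The nearest was Hbb-b1, a beta-globin gene of red blood cells, at 171 FPKM in 3bKO and 367 FPKM in fl/fl (distance 0.67), followed by the angiogenic factor Vegfa at 146 FPKM in 3bKO and 218 FPKM in fl/fl (distance 0.94). These likenesses rest on 2 libraries.

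Both genes are transcribed from the plus strand of GRCm38, Lep on chromosome 6 (29060221 to 29073876) and Cfd on chromosome 10 (79890853 to 79892655). The 250 bases before each start are shown with their CpG sites, the substrate of DNA methyltransferases. Every CpG is in capitals, and the strand runs 5′ to 3′ (RefSeq, GRCm38.p6).
Lep, chr6:29059971-29060220, plus strand: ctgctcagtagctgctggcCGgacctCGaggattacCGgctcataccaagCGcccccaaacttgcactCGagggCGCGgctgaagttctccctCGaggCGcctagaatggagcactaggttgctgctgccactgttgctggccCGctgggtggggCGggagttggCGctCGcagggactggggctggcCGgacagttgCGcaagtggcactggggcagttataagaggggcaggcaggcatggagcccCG
Cfd, chr10:79890603-79890852, plus strand: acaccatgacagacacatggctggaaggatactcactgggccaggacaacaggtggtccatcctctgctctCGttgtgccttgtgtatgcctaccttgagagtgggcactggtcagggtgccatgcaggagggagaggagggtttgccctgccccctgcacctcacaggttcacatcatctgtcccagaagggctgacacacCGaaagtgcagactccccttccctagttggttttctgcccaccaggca
The Lep window held 16 CpG sites and the Cfd window held 2. Of 32851 RefSeq promoter windows of this length, 25.4% held at least 16 and 81.2% held at least 2, with a median of 6. Of the 628 listed genes 465 had a window, and a gene with several starts counted more than once. Over these 594 windows the median was 7 for genes higher in 3bKO and 15.5 for lower genes. Lep, which was higher, and Cfd, which was lower, thus stood in the reverse order to these medians. The sequences were also searched on both strands for the TATA box core TATAA, found in 22.8% of windows, and for the palindrome TTGCGCAA, an ideal site of C/EBP factors, found in 0.164%. Lep held TATAA with its leftmost base at -31 on the plus strand, overlapping a match on the other strand at -32. It also held TTGCGCAA, with its leftmost base at -55. The Cfd window held neither motif. A match of letters is no measure of binding, and no methylation was measured here.

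Nnat and Mest are the imprinted genes of the group, both transcribed from the paternal copy. Nnat encodes neuronatin, a small membrane protein of the endoplasmic reticulum that was first described in developing brain and is also made by adipocytes. Mest encodes a protein of the alpha/beta hydrolase fold, whose mRNA level in mouse white fat goes with the capacity of the depot to expand. Nnat was 119 FPKM in 3bKO and 47.3 FPKM in fl/fl, a log2 ratio of 1.33. Mest was 16.2 FPKM in 3bKO and 7.88 FPKM in fl/fl, a log2 ratio of 1.04 and the smallest of those past 2-fold. Nnat was 7.36 times as abundant as Mest in 3bKO and 6.00 times in fl/fl.

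Nnat is a plus-strand gene of chromosome 2 (157560078 to 157562525) and lies wholly within the span of Blcap, a gene on the minus strand. In GENCODE vM1 the exons of Nnat shared 0 of 1829 bases with exons of Blcap. Mest is a plus-strand gene of chromosome 6 (30733506 to 30748466). Its last 913 bp overlap Copg2, which is on the minus strand, and in GENCODE vM1 904 of the 3937 exon bases of Mest are also exon bases of Copg2. The library protocol describes no strand marking, so fragments from that stretch could belong to either gene. Blcap and Copg2 had no value in the table. The sequences before the starts of Nnat and Mest are given because imprinted promoters are classical places of CpG methylation. CpG sites are in capitals, and of 3 RefSeq starts of Mest the middle one is shown.
Nnat, chr2:157559828-157560077, plus strand: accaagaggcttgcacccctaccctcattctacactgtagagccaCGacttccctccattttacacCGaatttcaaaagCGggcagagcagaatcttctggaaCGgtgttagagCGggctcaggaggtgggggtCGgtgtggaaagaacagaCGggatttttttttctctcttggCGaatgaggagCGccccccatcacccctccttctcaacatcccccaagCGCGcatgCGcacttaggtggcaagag
Mest, chr6:30737800-30738049, plus strand: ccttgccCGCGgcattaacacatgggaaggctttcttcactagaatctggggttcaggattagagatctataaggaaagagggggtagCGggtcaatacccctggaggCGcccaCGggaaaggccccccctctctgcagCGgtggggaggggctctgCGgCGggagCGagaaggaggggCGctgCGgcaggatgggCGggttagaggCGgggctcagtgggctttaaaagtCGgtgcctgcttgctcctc
The Nnat window held 12 CpG sites, a number reached by 33.5% of windows. The Mest window shown held 14, reached by 29.4%. The third Mest start, 3 bases downstream, gave 14 as well, and the upstream start, whose window ends at 30733505, gave 7, reached by 46.3%. TATAA was found in the Mest window shown, with its leftmost base at -182, and not in that of Nnat.

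**Figure D2:**
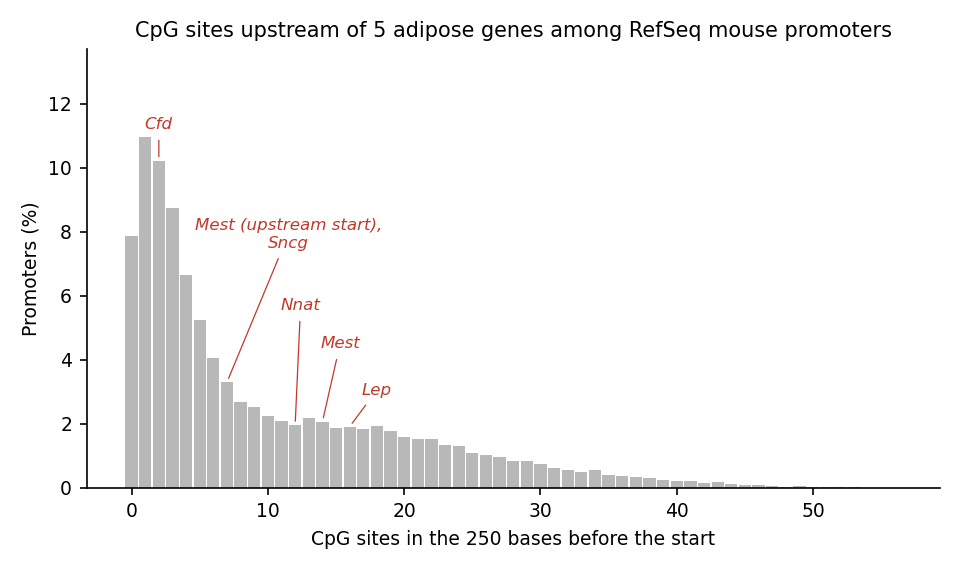
CpG sites in the 250 bases before the start (x) for 5 of the genes, on the distribution over 32851 RefSeq mouse promoter windows (bars, percent of windows). Cfd has 2 sites, and Lep, Nnat, Mest and Sncg have 7 to 16. Over the 594 windows of listed genes the median is 7 for higher and 15.5 for lower genes.

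Among 59 imprinted genes on a list, 4 had a value in the table. All 4 stood higher in 3bKO, with 3 past 2-fold and a median log2 ratio of 1.18. Over all listed genes 81.5% were higher and 47.1% were higher by more than 2-fold, with a median of 0.96. Nnat and Mest were chosen by their values, and of the other 2 genes 1 was past 2-fold. The others besides Nnat and Mest were noncoding RNAs of maternal expression. H19, which is abundant in fetal tissues and persists in skeletal muscle, was 21.5 FPKM in 3bKO and 1.82 FPKM in fl/fl, a log2 ratio of 3.56. Meg3 was 13.4 FPKM in 3bKO and 8.94 FPKM in fl/fl, a log2 ratio of 0.58. The remaining 55 imprinted genes had no value and cannot be called changed or unchanged. The gene nearest to Nnat was H2-Ab1, an MHC class II chain, at 106 FPKM in 3bKO and 48.7 FPKM in fl/fl (distance 0.18), and then Bgn (distance 0.27). Those nearest to Mest were Ctsh, a lysosomal cysteine protease, at 16.5 FPKM in 3bKO and 7.97 FPKM in fl/fl (distance 0.031), and the tetraspanin Cd9, at 16.4 FPKM in 3bKO and 8.17 FPKM in fl/fl (distance 0.056).

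Sncg encodes gamma-synuclein, a member of a family of presynaptic proteins that adipocytes also make in quantity. It was the most abundant of the 6 genes in 3bKO, at 336 FPKM against 176 FPKM in fl/fl, a log2 ratio of 0.93. Its ratio of 1.91 was the only one of the 6 within 2-fold. Its minus-strand gene occupies chromosome 14 from 34370274 to 34374669, and its promoter window, read on that strand, held 7 CpG sites and neither motif. The genes nearest to Sncg were H2-D1, an MHC class I chain, at 296 FPKM in 3bKO and 199 FPKM in fl/fl (distance 0.25), and Tmem45b at 261 FPKM in 3bKO and 173 FPKM in fl/fl (distance 0.37).

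Because Sncg and Nnat are also genes of nerve cells, 14 markers of nerve and Schwann cells were looked up, and 0 had a value. As the table lists selected genes, this does not say that these markers were absent or equal. Red blood cell genes were looked up as well. Of 8 blood markers 2 had a value, both lower, with a summed level of 274 FPKM in 3bKO and 449 FPKM in fl/fl. Among them Alas2, the erythroid enzyme of heme synthesis, was 12.1 FPKM in 3bKO and 27.1 FPKM in fl/fl. The other was the alpha-globin gene Hba-a2, at 262 FPKM in 3bKO and 422 FPKM in fl/fl. The beta-globin gene Hbb-b1 is not on that list or in its sum, and was lower as well, at 171 FPKM in 3bKO and 367 FPKM in fl/fl.

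Hoxc8 encodes a homeobox transcription factor of the trunk, whose mRNA is typically higher in white than in brown fat. It was the least abundant of the 6 genes, at 5.92 FPKM in 3bKO and 2.18 FPKM in fl/fl, and had the largest log2 ratio of them, 1.44, which ranked 188 of the 512 higher genes. With 1 FPKM added to both values the log2 ratio of Hoxc8 was 1.12, below 1.34 for Lep and 1.31 for Nnat. Hoxc8 lies on chromosome 15 from 102990539 to 102994275, between Hoxc9 and Hoxc6, in a cluster of 9 Hoxc genes. Of all 39 Hox genes on a list, Hoxc8 was the only one with a value in the table. The other 38, with both neighbours, were outside the table, which does not say that they were equal. The genes nearest to Hoxc8 were Fhl3, a LIM-domain protein prominent in skeletal muscle, at 6.02 FPKM in 3bKO and 2.21 FPKM in fl/fl (distance 0.031), and Cd24a, a surface glycoprotein of precursor cells, at 5.73 FPKM in 3bKO and 2.15 FPKM in fl/fl (distance 0.051).

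**Figure D3:**
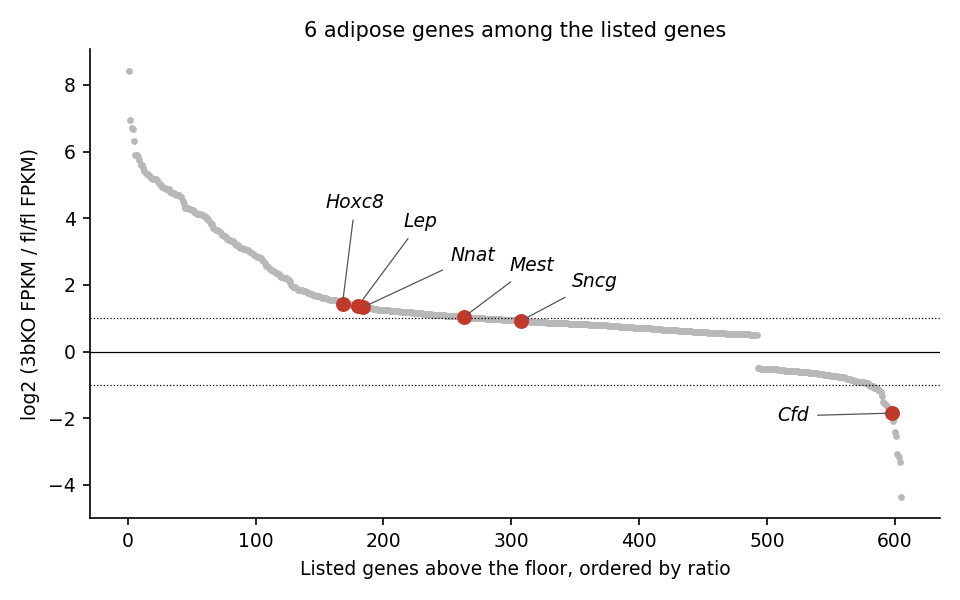
log2 ratio of 3bKO over fl/fl FPKM (y) for the listed genes with values above the floor of 0.01 FPKM, ordered from highest to lowest (x), with 6 adipose genes in red and dotted lines at a 2-fold difference. The 5 genes higher in 3bKO lie in the flat middle of the higher genes, at log2 ratios of 0.93 to 1.44, and Cfd lies near the low end at -1.85.

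The 6 genes were then set among wider lists, each to be read against all listed genes, of which 81.5% were higher in 3bKO and 47.1% higher by more than 2-fold, with a median log2 ratio of 0.96. Of 23 white adipocyte markers 8 had a value, 7 higher and 1 lower in 3bKO, with 4 higher and 1 lower by more than 2-fold and a median log2 ratio of 1.01. All 5 of those past 2-fold were among the 6 genes above. The 2 remaining ones are no markers of adipocytes alone. Igf1, a growth factor made by stromal and myeloid cells, was 8.73 FPKM in 3bKO and 4.39 FPKM in fl/fl, and Cd163, a scavenger receptor of macrophages, was 4.74 FPKM in 3bKO and 2.58 FPKM in fl/fl. Of 22 genes shared by all adipocytes, such as Adipoq, Fabp4, Plin1 and Pparg, 0 had a value. No measure common to adipocytes could therefore be set beside the 6 genes.

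Of 25 genes of adipose expansion 8 had a value, 7 higher and 1 lower in 3bKO, 5 of them higher by more than 2-fold, with a median log2 ratio of 1.02. Lep, Nnat, Mest and Sncg among the 8 were chosen by their values. Of the other 4 genes 3 were higher and 1 lower, with 2 higher by more than 2-fold. Thbs1, which encodes the matrix glycoprotein thrombospondin 1, was 9.76 FPKM in 3bKO and 4.70 FPKM in fl/fl. The matrix protein gene Tgfbi was 16.9 FPKM in 3bKO and 8.44 FPKM in fl/fl, and Vegfa, the lower one, had a log2 ratio of -0.58. Of 32 adipokines 6 had a value, 5 higher and 1 lower in 3bKO, with 2 higher by more than 2-fold, Lep and Rarres2, and a median log2 ratio of 0.62. Rarres2, which encodes chemerin, an attractant of immune cells, was 173 FPKM in 3bKO and 74.1 FPKM in fl/fl, a log2 ratio of 1.22. Sparc, a collagen-binding protein, was 783 FPKM in 3bKO and 539 FPKM in fl/fl. The chemokine Cxcl14 and the phospholipid transfer protein Pltp had log2 ratios of 0.61 and 0.64. Cfd was the only adipokine with a value that was lower. Lep and Cfd were chosen by their values, and the other 4 adipokines were all higher, 1 by more than 2-fold. Of 22 leptin signaling genes 2 had a value, Lep itself and Fos, an immediate early gene, at 7.54 FPKM in 3bKO and 0.74 FPKM in fl/fl. The leptin receptor gene Lepr had none.

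Cfd was also compared with the other complement genes. Of 30 complement genes 14 had a value, 12 higher and 2 lower in 3bKO, with 3 higher and 1 lower by more than 2-fold and a median log2 ratio of 0.86. Most listed genes were higher too, and the share past 2-fold was below the 47.1% of all listed genes. The lower ones were Cfd and C3, which encodes the central component that the alternative pathway cleaves, at 127 FPKM in 3bKO and 192 FPKM in fl/fl. Factor B, the substrate of adipsin, is encoded by Cfb, which was 11.3 FPKM in 3bKO and 6.55 FPKM in fl/fl. C3ar1, which encodes the receptor for the C3a fragment, was 6.45 FPKM in 3bKO and 2.05 FPKM in fl/fl, a log2 ratio of 1.65. The integrin chain Itgb2 and the classical pathway gene C1qa, both made by myeloid cells, had log2 ratios of 1.11 and 1.04.

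Those genes of brown adipocytes that had a value went the other way from Lep. Of 30 on a list 6 had a value, all 6 lower in 3bKO and 2 by more than 2-fold. Their median log2 ratio was -0.78, near the -0.72 of all lower listed genes. Of all 628 listed genes 116 were lower, and 4.46% were lower by more than 2-fold. The other 24 genes on the brown adipocyte list, Ucp1 among them, had no value and cannot be called changed or unchanged. Dio2, which makes active thyroid hormone, was 20.6 FPKM in 3bKO and 48.0 FPKM in fl/fl, and the fatty acid transporter gene Slc27a2 was 43.2 FPKM in 3bKO and 87.9 FPKM in fl/fl. Markers of several other cell types were higher, as were most listed genes. Of 17 macrophage markers 12 had a value, all higher and 8 by more than 2-fold, with a median log2 ratio of 1.09, near the 0.96 of all listed genes, and a summed level of 789 FPKM in 3bKO and 360 FPKM in fl/fl. Of 16 fibroblast and matrix markers 15 had a value, all higher and 8 by more than 2-fold, with a median of 1.05, also near that value, and sums of 1416 FPKM in 3bKO and 862 FPKM in fl/fl. All 22 skeletal muscle markers had a value and were higher, with a median of 4.77 and sums of 2601 FPKM in 3bKO and 209 FPKM in fl/fl. Of the endothelial markers 1 of 11 had a value, Vwf, at 5.86 FPKM in 3bKO and 3.87 FPKM in fl/fl, while 0 of 10 lymphocyte, 0 of 10 mesothelial and 0 of 9 mammary epithelial markers had one. Markers without a value cannot be called absent, changed or unchanged. None of the cell type markers with a value stood at the floor of 0.01 FPKM. The part of these cells in the levels of the 6 genes was not tested. In whole tissue, more cells of a type and more RNA per cell cannot be told apart.

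**Figure D4:**
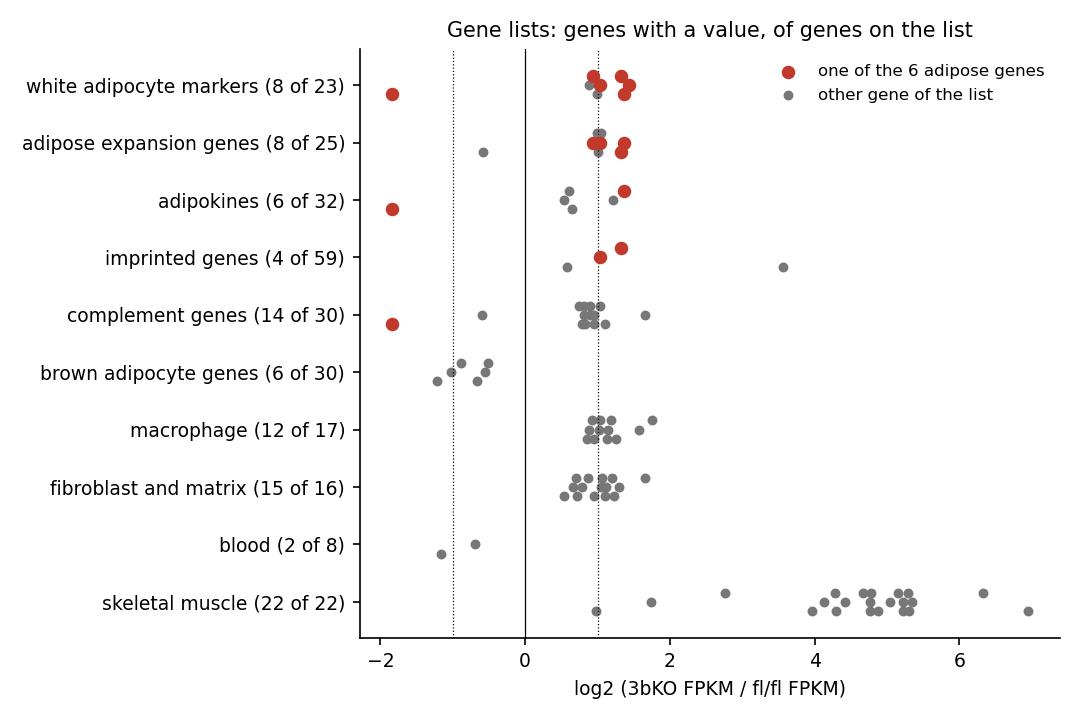
log2 ratio of 3bKO over fl/fl FPKM (x) for each gene with a value, by gene list (rows, with the number of genes with a value of the number on the list), with dotted lines at a 2-fold difference and 6 adipose genes in red. The higher adipose genes overlap the range of the macrophage and matrix markers, most muscle markers lie far to the right, with a median of 4.77, and the brown adipocyte genes lie below 0.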

How the data were processed

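RNA of brown adipose tissue was extracted, poly(A)-selected and sequenced, per the labels, with 1 library per genotype. The deposited table gives FPKM values calculated by the authors. The submitters' processing notes name RSEM and mm10, with no version, and the sources used here do not say how the 628 genes were filtered. The lowest value, 0.01, acts as a floor, at which 3 genes stood in 3bKO and 20 in fl/fl. Depth is unknown, since FPKM values carry no fragment counts, so no interval was computed. Identifiers were paired with RefSeq symbols of GRCm38.p6 (the build of mm10), and 627 of 628 matched. Ratios were 3bKO over fl/fl FPKM, with no pseudocount. Likeness of genes was the Euclidean distance between their log2 FPKM values in both libraries, over genes with at least 0.1 FPKM in each, and the 2 nearest were named. Of each gene list up to 4 members with the largest absolute ratios were to be named, and others were chosen after their values were seen. The result of 1 list is not reported here. Promoter windows were the 250 bases before RefSeq starts, given for 5 of the 6 genes. Exon overlap came from GENCODE vM1, on NCBIM37, with no coordinates taken from it. The genes and lists were chosen with earlier results of these data known. Alternatives were pseudocounts of 0.1 and 1, thresholds of 1.5-fold and 3-fold, a minimum of 1 FPKM, another scaling, and windows of 150 bases. Counting was tested on simulated data. Python 3.11.15, NumPy 2.4.6 and Matplotlib 3.10.9 were used.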

Additional observations from a re-analysis of the deposited data

How the results depend on the processing

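The log2 ratios of the 6 genes kept their sign under all 18 alternatives (pseudocounts of 0.1 and 1, and division of each library by its summed FPKM over listed genes outside the skeletal muscle markers), and each ratio, as a fold, moved by less than 1.5 times. The signs could not have changed, so they say nothing of steadiness. An equal pseudocount in both libraries cannot reverse a ratio. The scaling shifted log2 ratios by less than the smallest absolute one listed, 0.50. That scaling lowered every log2 ratio by 0.31, since the sum was 26600.3 FPKM in 3bKO and 21425 FPKM in fl/fl, and brought the median of all listed genes to 0.65. It left 3 of the 6 genes higher by more than 2-fold in place of 4, without Mest. Over all listed genes it gave 205 higher and 64 lower past 2-fold, in place of 296 and 28, so that the share of higher ones among them was 76.2% in place of 91.4%. A pseudocount of 1 also left 3 of the 6 genes higher by more than 2-fold, with Mest at a log2 ratio of 0.95. Over all listed genes that pseudocount gave 230 higher and 22 lower past 2-fold. At 3-fold, 0 of the 6 genes were higher and Cfd stayed lower. Over all listed genes, 175 were then higher and 16 lower, against 468 and 87 at 1.5-fold. At 2-fold, a minimum of 1 FPKM in both libraries left 174 higher and 21 lower over all listed genes, in place of 296 and 28. The 6 genes all reached that minimum, so their counts stayed at 4 higher and 1 lower. Counts of the gene lists moved by more than 1.5 times in 19 of 72 cases at 1.5-fold or 3-fold, which follows from how many genes each threshold admits. The 72 cases include lists with no gene in the table and directions in which a list had no gene. Those stay at 0 at any threshold and could not move, so 19 of 72 understates the movement of the rest. At 3-fold, 0 white adipocyte, 0 adipokine, 0 expansion, 1 imprinted, 1 complement, 1 macrophage and 1 matrix gene were higher. At that threshold 0 brown adipocyte genes were lower, in place of 2 at 2-fold. At 1.5-fold, 7 white adipocyte, 4 adipokine, 12 complement and 14 matrix genes were higher and 4 brown adipocyte genes were lower. In the 150 bases nearest the start Lep held 7 CpG sites, Cfd 1, Nnat 9, Mest 11 and Sncg 6. These settings do not address variation between animals, for which 1 library per genotype gives no measure.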
